A study of Homo sapiens with 6 samples.

Results

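Genes that handle extracellular nucleotides and adenosine were followed in Hep3B cells, an established human hepatocellular carcinoma cell line, after knockdown of DAGLA, the gene of diacylglycerol lipase alpha. The 10 genes were NT5E, CANT1, ENTPD1, ENTPD5, ENTPD6, ADORA1, ADORA2B, ADK, ADA and SLC29A1, out of 29908 genes in the table. The set was selected on the measured FPKM of NT5E, higher in the knockdown cells, and of CANT1, lower in them, and its rows were found by symbol. The genes' differences between the groups are therefore given as a description, with standard errors and without p-values. Where a p-value threshold sorts these genes further on, that too is a description. A mean of at least 0.5 FPKM (fragments per kilobase of exon per unit of library size, the deposited measure of a gene's RNA) was reached by 9 of the 10, against 14221 genes in all, and ADORA1 fell short of it.

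In Hep3B-KD cells DAGLA was targeted by a short hairpin RNA (shRNA) delivered by lentivirus. Hep3B-Con cells carried the control lentivirus, described as an empty vector. The sample titles call these cells shControl and the study mentions negative sequences, so whether they carried a control hairpin is not clear. Cells of both groups were infected at a multiplicity of infection of 5 and kept under puromycin, so that both had been through infection and selection. Each group held 3 replicate libraries and the knockdown rested on a single hairpin in a single cell line, with no second hairpin and no rescue among these libraries. The sample titles number the replicates and do not say whether they were infected separately. Standard errors and p-values therefore measure the spread between these libraries and may not cover that between separate infections. The recovered reads numbered 16644962 to 17572714 per Hep3B-Con library and 15861039 to 16593115 per Hep3B-KD library. DAGLA was present at 9.42, 9.40 and 9.02 FPKM in the Hep3B-Con libraries and at 4.62, 4.46 and 4.78 FPKM in the Hep3B-KD libraries, so that the log2 fold change was -0.99 with a standard error of 0.0441 (limma, adjusted p = 5.25e-06).

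ATP that leaves a cell through membrane channels is cut stepwise outside it, to ADP and AMP by ectonucleoside triphosphate diphosphohydrolases such as the ENTPD1 product, and from AMP to adenosine by the 5′-nucleotidase encoded by NT5E. Adenosine then acts on G-protein-coupled receptors, enters cells through equilibrative transporters such as the SLC29A1 product, and is phosphorylated by adenosine kinase (ADK) or deaminated to inosine by adenosine deaminase (ADA). ENTPD5, ENTPD6 and CANT1 act mainly on diphosphonucleosides in the endoplasmic reticulum and Golgi, where UDP and GDP are left over when sugars are added to proteins. Adenosine formed outside liver tumour cells is known for dampening immune cells.

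Sequences are shown first for the features that the choice of genes did not use. The hairpin's target lies in DAGLA on chromosome 11 of GRCh38, at chr11:61740504-61740522 on the plus strand, and its guide strand is the reverse complement. Bases 2 to 8 of the guide (its seed), in capitals, can pair with 7-base matches in 3′ UTRs of other transcripts, and the matching bases of the target are in capitals too. The 2 matches found among the 10 genes are given with the surrounding bases, read along the transcript from GENCODE release 29 annotation of GRCh38.
shDAGLA target: gcgacaacaagGCCTTCAa
shDAGLA guide: tTGAAGGCcttgttgtcgc
ADA 3′ UTR: cactcctccaaGCCTTCAccctgtggagt
SLC29A1 3′ UTR: agaaaccaggtGCCTTCAgaggctctctg

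The ADA site lies at chr20:44619799-44619827 on the minus strand, with its match starting at base 18 of the 312-base 3′ UTR. That of SLC29A1 lies at chr6:44234086-44234114 on the plus strand, with its match starting at base 569 of 623. Thus 2 of the 10 genes (20%) carried a match in their longest 3′ UTR, beside 1627 of the 11188 tested genes with a 3′ UTR of at least 50 bases (14.5%). ADA and SLC29A1 were both lower in Hep3B-KD. Over the tested genes the median log2 fold change was -0.038 for the 1627 with a match and 0.105 for the 9561 without. The part of the match in any of these levels was not tested. NT5E and CANT1 had none in 3′ UTRs of 1787 and 1833 bases.

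Promoter windows from RefSeq (GRCh38.p14), each running from 250 bases before to 50 after a gene's start, were found for 9 of the 10 genes, 16 windows in all because 4 of the genes have several starts. They were searched on both strands for TGACG, the core of the cyclic AMP response element, for ACGTG, the core bound by hypoxia-inducible factors and other factors, and for GGAATG, the core bound by TEAD factors. A TGACG that runs on as TGACGTG would count for the first and the second motif alike. The windows of NT5E and ENTPD5, the genes that were higher in Hep3B-KD, are shown beside that of ADA, the gene with the lowest log2 fold change, with the motifs in capitals. They lie at chr6:85449833-85450132 on the plus strand for NT5E, at chr14:74019239-74019538 on the minus strand for ENTPD5 and at chr20:44651650-44651949 on the minus strand for ADA.
NT5E promoter: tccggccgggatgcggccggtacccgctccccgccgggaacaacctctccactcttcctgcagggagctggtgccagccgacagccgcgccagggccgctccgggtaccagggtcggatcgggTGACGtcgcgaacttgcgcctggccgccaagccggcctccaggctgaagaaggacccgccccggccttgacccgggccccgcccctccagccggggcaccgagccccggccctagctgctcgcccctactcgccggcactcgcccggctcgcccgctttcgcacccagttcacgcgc
ENTPD5 promoter: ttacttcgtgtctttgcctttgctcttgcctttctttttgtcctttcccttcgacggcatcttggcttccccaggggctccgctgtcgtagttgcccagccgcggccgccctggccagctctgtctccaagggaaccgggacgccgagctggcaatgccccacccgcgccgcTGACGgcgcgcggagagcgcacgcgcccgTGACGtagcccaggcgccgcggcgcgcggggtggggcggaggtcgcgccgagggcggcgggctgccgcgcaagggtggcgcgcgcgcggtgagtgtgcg
ADA promoter: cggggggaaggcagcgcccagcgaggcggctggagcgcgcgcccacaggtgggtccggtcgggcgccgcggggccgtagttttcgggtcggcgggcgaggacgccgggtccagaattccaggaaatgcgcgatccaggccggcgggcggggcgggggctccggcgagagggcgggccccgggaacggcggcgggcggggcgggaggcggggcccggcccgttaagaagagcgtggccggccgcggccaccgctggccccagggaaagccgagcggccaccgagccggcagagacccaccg

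TGACG occurred 1 time in the NT5E window and 2 times in the ENTPD5 window, and the ADA window held none of the motifs. The GC content of these windows was 75%, 71.7% and 79.3%. Of the 16 windows 7 held TGACG, beside 24.6% of all 35116 RefSeq windows. They belonged to NT5E, ENTPD1, ENTPD5, ENTPD6, ADORA2B and ADK, which were higher, lower or much alike between the groups. ACGTG occurred in 2 windows, of ENTPD6 and SLC29A1, against 21.4% of all windows. GGAATG occurred in 1 window, of ADK, against 14%.

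NT5E encodes the ecto-5′-nucleotidase CD73, the surface enzyme that forms adenosine from AMP. Its FPKM was 8.62, 8.41 and 8.07 in Hep3B-Con and 24.3, 25.6 and 24.6 in Hep3B-KD. Every Hep3B-KD library lay far above every Hep3B-Con library, and no values fell between the groups. The mean went from 8.37 ± 0.279 (SD, n = 3) to 24.8 ± 0.679 (SD, n = 3), a ratio of 2.97. The log2 fold change, taken throughout as Hep3B-KD against Hep3B-Con on log2(FPKM + 0.1), was 1.56 (standard error 0.0375). These values rested on 609 to 687 reads in Hep3B-Con and on 1745 to 1863 reads in Hep3B-KD. Only 1.88% of the genes tested had a larger log2 fold change. NT5E (ENSG00000135318) occupies chr6:85449584-85495791 of GRCh38 on the plus strand and shares no exon bases with another gene of the annotation.

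CANT1 encodes calcium-activated nucleotidase 1, an enzyme of the endoplasmic reticulum and Golgi that prefers UDP and is needed for proteoglycan synthesis. Its FPKM was 32.1, 33.4 and 32.0 in Hep3B-Con and 14.9, 15.7 and 15.3 in Hep3B-KD. The groups stood apart, with the Hep3B-Con values more than double those of Hep3B-KD. The mean of 32.5 ± 0.792 (SD, n = 3) against 15.3 ± 0.394 (SD, n = 3) was a 2.13-fold lower level, with a log2 fold change of -1.08 (standard error 0.0315). A lower log2 fold change was found for 3.14% of the genes tested. CANT1 (ENSG00000171302) occupies chr17:78991717-79009867 on the minus strand, and 1045 to 2567 reads per library fell on it.

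**Figure D1:**
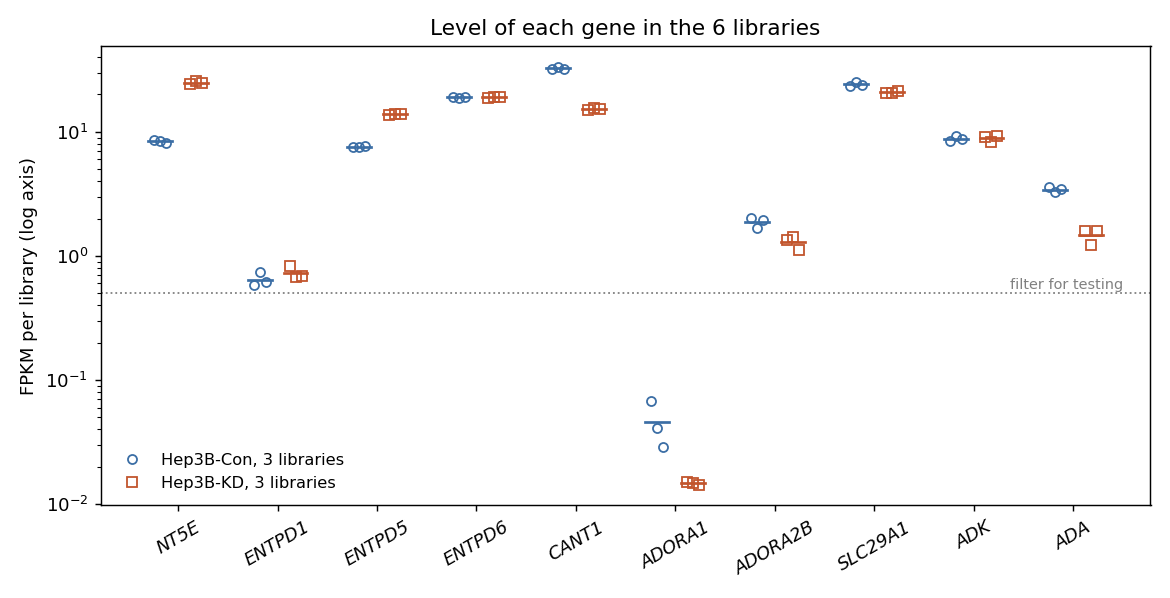
FPKM of the 10 genes (log axis) in the 3 Hep3B-Con and the 3 Hep3B-KD libraries; each point is 1 library and each bar the mean of a group. NT5E and ENTPD5 sit higher and CANT1, ADORA2B, ADA and SLC29A1 lower in every Hep3B-KD library, while the points of ENTPD1, ENTPD6 and ADK overlap; ADORA1 rests on 1 to 5 reads per library.

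The ectonucleotidase ENTPD1 (CD39), best known from leukocytes and endothelium, was barely present in these cells. Its FPKM was 0.579, 0.742 and 0.612 in Hep3B-Con and 0.832, 0.678 and 0.691 in Hep3B-KD, on 71 to 92 reads per library. The groups overlapped, since the second Hep3B-Con library exceeded 2 of the Hep3B-KD libraries. The log2 fold change was 0.17 (standard error 0.192), smaller than its standard error, and a difference of this size was not detectable at this depth. Quantile normalisation turned its sign to -0.15. Of its exon length, 454 bases (6.51%) lie opposite exons of ENTPD1-AS1, listed at 0.557 and 0.532 FPKM in the groups, and whether the counting used the strand is not given in the sources used here. A further 173 bases (2.48%) are shared on the same strand with AL365273.2, for which no value is given here.

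ENTPD5 encodes a UDP-hydrolysing enzyme of the endoplasmic reticulum that serves protein N-glycosylation and folding. Its FPKM was 7.54, 7.58 and 7.63 in Hep3B-Con and 13.6, 13.9 and 13.9 in Hep3B-KD. Both groups were tight and did not overlap. The means of 7.59 ± 0.045 and 13.8 ± 0.152 (SD, n = 3 each) gave a ratio of 1.82 and a log2 fold change of 0.85 (standard error 0.0297), which stayed under the 2-fold threshold. A larger log2 fold change was found for 10.1% of the genes tested. As much as 24.0% of its exon length (2496 bases) lies opposite exons of COQ6, which was listed at 0.419 FPKM in Hep3B-Con and 0.636 FPKM in Hep3B-KD, and 47 bases lie opposite BBOF1, listed at 0.126 and 0.260 FPKM. Without the strand of counting, reads of the shared stretches cannot be told apart.

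ENTPD6 encodes a Golgi and secreted diphosphohydrolase of the same family. Its FPKM was 19.1, 18.8 and 19.2 in Hep3B-Con and 18.9, 19.2 and 19.1 in Hep3B-KD. The values of the groups were interleaved, and the log2 fold change was 0.0019 with a standard error of 0.0244. It was the gene with the smallest difference of the 9. Its place depended on the scaling, as described further on, and 282 of its exon bases lie opposite AL035252.4, a gene model for which no value is given here.

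Among the receptors, ADORA2B encodes the low-affinity adenosine receptor that raises cyclic AMP. Its FPKM was 2.03, 1.69 and 1.95 in Hep3B-Con and 1.33, 1.42 and 1.11 in Hep3B-KD, on 47 to 91 reads per library. The lowest Hep3B-Con library still exceeded the highest Hep3B-KD library. The means of 1.89 ± 0.178 and 1.29 ± 0.158 (SD, n = 3 each) were 1.47-fold apart, with a log2 fold change of -0.52 (standard error 0.126). It was the receptor with reads enough to compare. ADORA1, whose product lowers cyclic AMP, had 5, 3 and 2 reads in Hep3B-Con and 1 read in each Hep3B-KD library (0.0679 FPKM at most), so that no fold is given. Of its exons 354 bases lie opposite AC105940.2, for which no value is given here.

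SLC29A1 encodes the equilibrative transporter that carries most adenosine across the plasma membrane in many cells. Its FPKM was 23.5, 25.4 and 23.9 in Hep3B-Con and 20.7, 20.4 and 21.4 in Hep3B-KD. The groups did not overlap, but the distance between them was small. Its level was 1.17-fold lower, with a log2 fold change of -0.22 (standard error 0.0373), and 24.8% of the genes tested had a lower one.

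The enzymes that clear adenosine inside the cell differed from each other. ADK, which returns adenosine to AMP, had FPKM values of 8.47, 9.20 and 8.70 in Hep3B-Con and 9.01, 8.27 and 9.27 in Hep3B-KD. These values overlapped throughout, with a log2 fold change of 0.01 (standard error 0.0558). ADA, which deaminates adenosine, had FPKM values of 3.57, 3.25 and 3.43 in Hep3B-Con and 1.59, 1.22 and 1.59 in Hep3B-KD. Each Hep3B-KD value was less than the lowest Hep3B-Con value by a wide margin. The means of 3.42 ± 0.163 and 1.47 ± 0.211 (SD, n = 3 each) were 2.33-fold apart, with a log2 fold change of -1.18 (standard error 0.115), on 161 to 179 reads per Hep3B-Con library and 56 to 75 per Hep3B-KD library. A pseudocount of 1 brought the log2 fold change of ADA to -0.84, short of 2-fold. Only 46 bases of its exons lie opposite another gene, PKIG, which was listed at 4.83 and 7.85 FPKM. ADK shares 227 bases with AC022540.1 on the opposite strand, listed at 0.0637 and 0.0332 FPKM, and 188 bases (5.90%) with the pseudogene MRPL35P3 on its own strand, for which no value is given here.

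**Figure D2:**
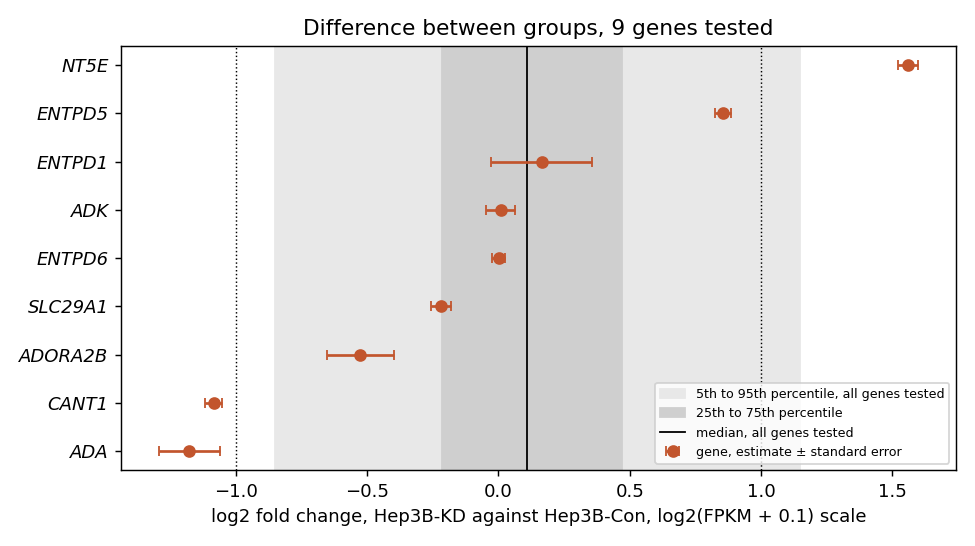
Log2 fold change (Hep3B-KD against Hep3B-Con, on log2(FPKM + 0.1)) of the 9 genes above the filter, with standard errors from limma, over grey bands for the middle spans of all 14221 genes tested, a solid line at their median and dotted lines at 2-fold. NT5E at 1.56 lies in the upper tail and ADA at -1.18 and CANT1 at -1.08 in the lower tail, while ENTPD6, ADK and ENTPD1 lie near the median of all genes, 0.11.

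Read along the path from AMP to inosine, NT5E, which forms adenosine, was represented by more RNA in Hep3B-KD. The transporter SLC29A1, the receptor ADORA2B and the deaminase ADA were represented by less. The kinase ADK and the surface enzyme ENTPD1 overlapped between the groups. Relatives of these genes, given further on, went either way. SLC29A4, ENTPD8 and ADAL were higher, SLC29A3 was lower, SLC29A2 and ENTPD2 did not pass, and ADORA2A stayed below the filter. Each of these genes therefore stands for itself and not for its step. Among the enzymes of the secretory pathway, ENTPD5 was higher, CANT1 lower and ENTPD6 much the same. These are RNA levels of whole cultures, in which fewer cells with a transcript and less of it per cell cannot be told apart, and enzyme activity and adenosine were not measured in these libraries.

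Since FPKM is scaled to length, the levels can be ordered. In Hep3B-Con the order of mean FPKM was CANT1, SLC29A1, ENTPD6, ADK, NT5E, ENTPD5, ADA, ADORA2B, ENTPD1 and ADORA1. Only ADK (8.79) and NT5E (8.37) had overlapping ranges as neighbours in it. In Hep3B-KD the order was NT5E, SLC29A1, ENTPD6, CANT1, ENTPD5, ADK, ADA, ADORA2B, ENTPD1 and ADORA1, and only ADA (1.47) and ADORA2B (1.29) overlapped as neighbours. NT5E thus held the fifth place in the control cells and at the head of the list in the knockdown cells, and CANT1 went from the head to the fourth place. The length used for each gene is that of all its annotated exons together, 2551 bases for ADORA2B to 10379 for ENTPD5, so a gene expressed from a short transcript has its level understated.

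Counted together, 1 of the 9 genes tested was higher by at least 2-fold with an adjusted p under 0.05 from limma (NT5E), where 5.89% of all 14221 genes were, and 2 were lower (CANT1 and ADA), where 2.94% of all genes were. With the adjusted p alone, 2 were higher (NT5E and ENTPD5; 36.1% of all genes) and 4 lower (CANT1, ADORA2B, ADA and SLC29A1; 23.8% of all genes). The same 2 and 4 genes had groups that did not overlap, as did 40.7% of all genes in the higher and 26.3% in the lower direction. The median log2 fold change of the 9 genes was 0.0019, and that of all genes tested was 0.11. Because these differences helped to choose the genes, nothing is read from the counts.

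The sorting of the genes by the adjusted p threshold moved little with the processing. The alternatives reuse the same libraries that the choice of genes was made on, so this stability adds no independent support for the differences. In 15 alternatives NT5E kept a log2 fold change between 1.45 and 1.58, CANT1 one between -1.19 and -1.04, and ENTPD5 one between 0.75 and 0.88. ADORA2B ranged from -0.77 to -0.34, ADA from -1.39 to -0.84 and SLC29A1 from -0.33 to -0.17. ENTPD6 (-0.10 to 0.04) and ADK (-0.10 to 0.06) took either sign. Centring each library on its median log ratio, which moved the median of all genes from 0.11 to 0.0059, brought ENTPD6 past the adjusted p threshold as a lower gene, as did limma's voom on the recovered reads. Over all genes these scalings changed the balance of directions at 2-fold, from 838 higher and 418 lower to 622 and 536 with median centring, 719 and 564 with voom, and 477 and 587 with quantile normalisation.

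**Figure D3:**
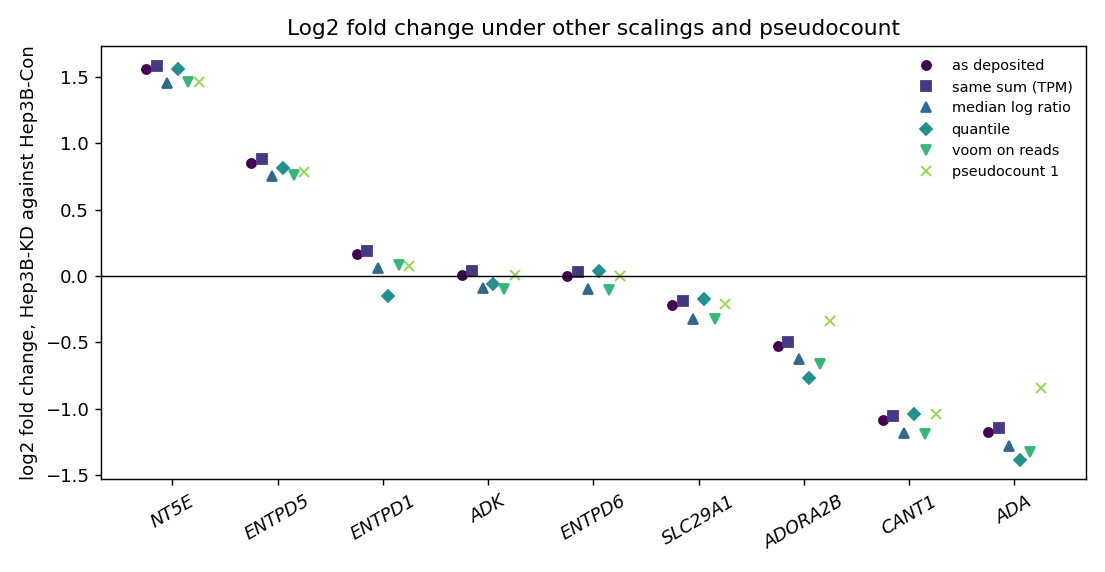
Log2 fold change of the 9 genes as deposited (left point of each gene), under the other scalings (TPM, median log ratio, quantile, voom) and with a pseudocount of 1. NT5E and ENTPD5 stay above 0 and CANT1, ADORA2B, ADA and SLC29A1 below 0 in all of these, whereas ENTPD1, ENTPD6 and ADK have points on both sides of 0.

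The spread between libraries was close to that of counting alone for most of the genes. The coefficient of variation of NT5E was 3.34% in Hep3B-Con and 2.74% in Hep3B-KD, where the reads alone give 3.91% and 2.34%. That of ADA was 4.76% and 14.4%, against 7.72% and 12.2% from the reads. ENTPD5 varied less than its reads alone give, by 0.599% and 1.10% against 2.72% and 2.08%. SLC29A1 varied by 4.13% in Hep3B-Con, against 2.33% from the reads, and by 2.29% in Hep3B-KD, against 2.59%. Each coefficient rests on 3 libraries and is imprecise.

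The other genes of the pathway were taken as 10 lists of 115 genes, of which 108 were in the table and 74 passed the filter. The lists were chosen with earlier results of these data known. Their counts and medians are therefore given as a description, and no list was tested as a whole. At an adjusted p under 0.05 from limma, 32 of the 74 were higher and 26 lower in Hep3B-KD, and 16 did not pass. Over all 14221 genes tested, 36.1% were higher and 23.8% lower by the same rule, the shares beside which each count by that rule stands. The median log2 fold change of the 74 was 0.08, beside 0.11 for all genes. Over the alternative scalings, 26 to 33 were higher and 24 to 30 lower. At 2-fold, ENPP5 and ENPP3 were higher and GJA1, LRRC8B, ADCY3, SLC29A3 and SLC35A4 lower. With that fold and the same adjusted p, 5.89% of all genes were higher and 2.94% lower. ENPP3 passed the filter only through its level in Hep3B-KD (0.753 FPKM, against 0.299 FPKM in Hep3B-Con).

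Among the channels and carriers through which ATP can leave the cell, 7 of 10 fell, 1 rose and 2 did not pass (6 or 7 fell in every alternative), with a median log2 fold change of -0.47; of all genes 23.8% were lower and 36.1% higher. GJA1 encodes the connexin 43 hemichannel and fell by 1.90 (log2), from 101 to 27.0 FPKM (standard error 0.0240, adjusted p = 5.32e-08 from limma). LRRC8B, a subunit of the volume-regulated anion channel, fell by 1.41, from 4.27 to 1.54 FPKM (adjusted p = 7.43e-06), and VDAC1, a porin mainly of the outer mitochondrial membrane, fell by 0.63, from 103 to 66.2 FPKM (adjusted p = 1.79e-06). PANX2 of the pannexins rose from 2.26 to 3.52 FPKM (0.62, adjusted p = 0.000619). PANX1, counted among the 7, fell by only 0.14, from 12.8 to 11.6 FPKM (adjusted p = 0.0313 from limma). Its call was lost in some alternatives, with an adjusted p of up to 0.0880.

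Of the other nucleotide hydrolases of the surface and lumen 8 of 10 rose, 1 fell and 1 did not pass, with a median log2 fold change of 0.59; of all genes 36.1% were higher and 23.8% lower. In the alternatives that kept the 10 genes 6 to 8 rose. Of the 7 left with a filter of 1 FPKM 5 rose, and the median log2 fold change of the 7 was 0.31. This filter too favoured a rise for ENPP5, which is among the 5. It lay under 1 FPKM in Hep3B-Con and passed only through Hep3B-KD. ENPP5 rose from 0.545 to 1.92 FPKM (log2 fold change 1.67, adjusted p = 0.000213 from limma) and ENPP3, which cuts extracellular nucleotides, from 0.299 to 0.753 FPKM (1.09, adjusted p = 0.00745). ENPP4 rose from 3.16 to 5.90 FPKM (0.90, adjusted p = 0.000779). BST1, which uses NAD, had 0.375 and 0.807 FPKM (0.95, adjusted p = 0.0302 from limma). It lost its call in 7 alternatives, with an adjusted p of up to 0.115. Like ENPP3, BST1 lay under 0.5 FPKM in Hep3B-Con and passed the filter only through Hep3B-KD. The filter thus favoured a rise for ENPP3 and BST1, which are both among the 8.

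The paralogs of the ENTPD genes under study were uneven. ENTPD7 rose from 11.1 to 15.5 FPKM (log2 fold change 0.47, adjusted p = 0.000227 from limma) and the Golgi enzyme ENTPD4 from 6.97 to 8.69 FPKM (0.31, adjusted p = 0.000939). ENTPD8, a surface enzyme, rose from 0.526 to 0.923 FPKM (0.71, adjusted p = 0.0127), a call lost under quantile normalisation (adjusted p = 0.0985). ENTPD2 had 1.83 and 1.97 FPKM and did not pass (adjusted p = 0.380), and ENTPD3 had at most 1 read in any library.

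Among the relatives of the transporter and the deaminase, SLC29A3, the lysosomal and mitochondrial nucleoside transporter, fell by 1.33 (log2), from 7.42 to 2.90 FPKM (adjusted p = 1.26e-05 from limma). SLC29A4, a transporter of monoamines and of adenosine at acid pH, rose from 22.1 to 34.1 FPKM (0.62, adjusted p = 7.76e-06). SLC29A2 had 33.8 and 31.4 FPKM (-0.10, adjusted p = 0.135) and passed as lower with median centring, with voom and without Hep3B-Con replicate 2, the adjusted p ranging from 0.000558 to 0.833 over the alternatives. ADAL, an adenosine deaminase-like enzyme, rose from 1.51 to 2.26 FPKM (0.56, adjusted p = 0.00749), lost under quantile normalisation (adjusted p = 0.0601), and ADA2, the secreted deaminase, had 6 reads or fewer in every library. ADORA2A stayed below the filter, at 0.163, 0.233 and 0.373 FPKM in Hep3B-Con and 0.541, 0.475 and 0.474 FPKM in Hep3B-KD, and ADORA3 was not analysed here.

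**Figure D4:**
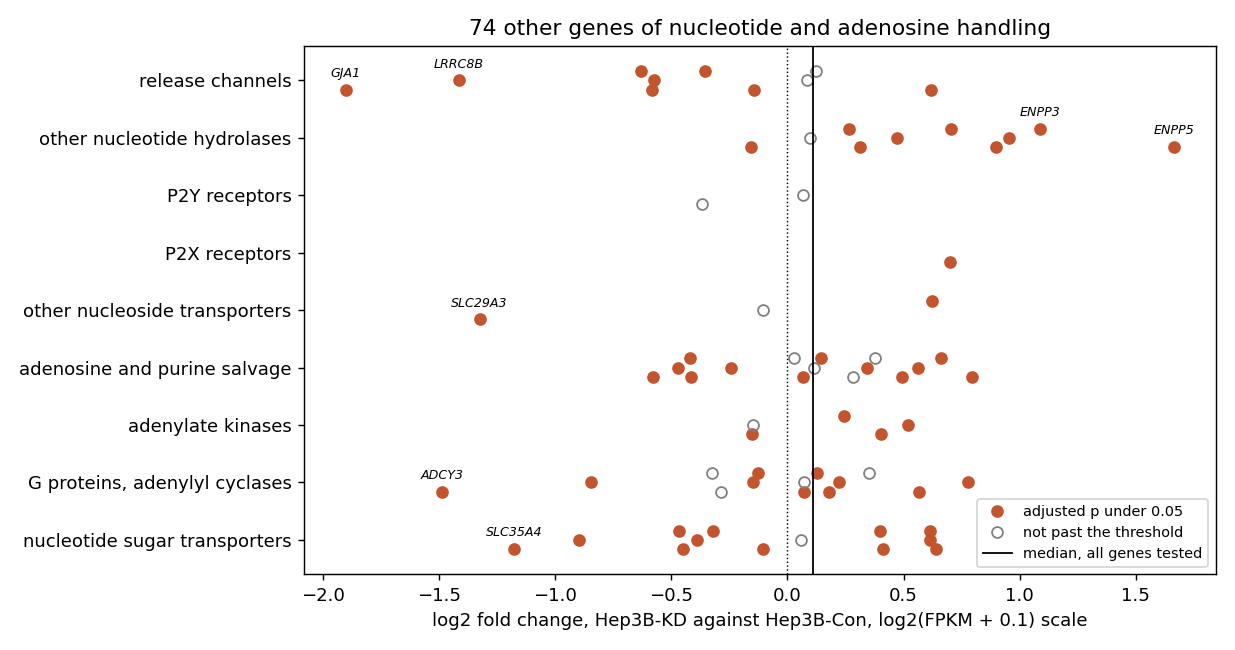
Log2 fold change of the 74 other genes of the pathway that passed the filter, by list, with filled points for an adjusted p under 0.05 from limma and a vertical line at the median of all genes, 0.11. Most release channels lie to the left of the line, GJA1 farthest, and most other nucleotide hydrolases to the right, with ENPP5 and ENPP3 beyond 2-fold.

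The remaining lists held calls in both directions, beside 36.1% higher and 23.8% lower over all genes. Of the salvage enzymes 7 of 16 rose and 5 fell, with AHCYL2 rising from 1.48 to 2.65 FPKM (log2 fold change 0.80, adjusted p = 0.00101 from limma) and NT5C3A from 9.60 to 15.2 FPKM (0.66, adjusted p = 4.97e-05). Of the adenylate kinases 3 of 5 rose and 1 fell. Of the receptor-coupled G proteins, adenylyl cyclases and kinase subunits 6 of 14 rose and 4 fell. With median centring 2 rose and 5 fell, and with voom 4 and 6. Of all 14221 genes 5133 were higher and 3388 lower as deposited, 4064 and 4308 with median centring, and 4350 and 4450 with voom. ADCY3 fell by 1.49, from 2.10 to 0.685 FPKM (adjusted p = 7.16e-05), ADCY9 fell by 0.85, from 12.2 to 6.72 FPKM (adjusted p = 9.17e-06), and PRKACB, a catalytic subunit of protein kinase A, rose from 2.07 to 3.62 FPKM (0.78, adjusted p = 0.000223). The ATP-gated channel gene P2RX4 rose from 1.10 to 1.86 FPKM (0.70, adjusted p = 0.00416), as the sole P2X gene above the filter, and neither of the 2 P2Y genes above it passed, though P2RY1 (log2 fold change -0.37, adjusted p = 0.198) did as lower under quantile normalisation and voom, the adjusted p ranging from 0.0174 to 0.411 over the alternatives.

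Sugar-nucleotide transporters, which work beside ENTPD5, ENTPD6 and CANT1 in the Golgi and endoplasmic reticulum, numbered 13, of which 5 rose and 7 fell (36.1% and 23.8% of all genes). SLC35A4 fell by 1.18 (log2), from 23.3 to 10.2 FPKM (adjusted p = 9.96e-07 from limma), and the GDP-fucose transporter SLC35C1 fell by 0.90, from 17.9 to 9.58 FPKM (adjusted p = 4.42e-06). SLC35D2 rose from 1.47 to 2.35 FPKM (0.64, adjusted p = 0.00074) and the CMP-sialic acid transporter SLC35A1 from 1.65 to 2.59 FPKM (0.61, adjusted p = 0.000973). The UDP-N-acetylglucosamine transporter SLC35A3 rose from 0.616 to 1.0 FPKM (0.61, adjusted p = 0.0182), a call lost without Hep3B-KD replicate 2 (adjusted p = 0.0657) and under quantile normalisation (adjusted p = 0.169).

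Markers were summed to check the cells. The 8 hepatocyte markers summed to 3035 to 3097 FPKM in Hep3B-Con and to 4411 to 4436 FPKM in Hep3B-KD. Most of that sum was ALB, with means of 2041.5 and 3314.7 FPKM. ALB, AFP, APOA1, APOB, TTR and SERPINA1 rose, 6 in all, and FGB and AHSG fell. With median centring and with voom 5 rose. Over all 14221 genes 5133 were higher as deposited, 4064 with median centring and 4350 with voom. The endothelial markers summed to 0.194 to 0.217 FPKM and 0.278 to 0.385 FPKM, nearly all of it PECAM1 (0.197 and 0.339 FPKM), with VWF, CDH5 and KDR at or near 0. Of the 6 leukocyte markers 4 were in the table and summed to 2.86 to 4.49 FPKM and 3.99 to 4.79 FPKM. That sum came from LYZ (2.63 and 3.51 FPKM) and CD14 (1.08 and 0.862 FPKM), neither of which passed (adjusted p = 0.0713 and 0.326 from limma, and 0.0336 and 0.0459 at the lowest over the alternatives), while PTPRC stood at 0.0276 and 0.0112 FPKM and CSF1R near 0. The 5 stellate cell and fibroblast markers summed to 3.46 to 3.78 FPKM and 2.44 to 2.48 FPKM, with DCN and THY1 near 0. The 2 of them that were tested fell, PDGFRB from 2.67 to 2.11 FPKM (adjusted p = 0.00447 from limma) and COL1A1 from 0.745 to 0.271 FPKM (adjusted p = 0.0072). COL1A1 lay under 0.5 FPKM in Hep3B-KD and passed the filter only through Hep3B-Con, so the filter favoured a fall for it. The part of these marker differences in the levels of NT5E, CANT1 and the other genes was not tested.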

How the data were processed

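The study's libraries were made from total RNA of Hep3B cells by TruSeq preparation for Illumina sequencing. The authors deposited FPKM values, 1 column per library, and the submitters' processing notes name Bowtie2 2.0.6, TopHat2 2.0.12 and GRCh37. The strand setting of the counting is not given in the sources used here. Exon lengths were those of GENCODE release 29 (GRCh38), which held all 29908 identifiers. FPKM times length was divided by the smallest positive product in its library, which was taken as 1 read. The result was whole reads (tolerance 0.01 read) for all values, so positions are given on GRCh38. A count of 3 reads or fewer was treated as the floor, which covers counting error only.

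Libraries were grouped by the hairpin in their labels. Genes averaging 0.5 FPKM or more were compared on the log2(FPKM + 0.1) scale with limma 3.58.1 (lmFit, eBayes with trend) in R 4.3.3 and Benjamini-Hochberg adjustment over all 14221 genes, tested on simulated reads. The 10 genes and the lists were chosen with earlier results of these data known. Text names all 10 genes, paralogs, genes sharing their exons, and genes of the 10 pathway lists past an adjusted p of 0.05 and 1.5-fold. P2RY1, PANX1 and the markers were named after their values were seen. The alternatives tried were omitting the filter, raising it to 1 FPKM, a pseudocount of 1 or of 0.01, TPM, median centring, quantile normalisation, voom, a replicate block and each library left out. Replicates of a group differed by more than counting noise, with a chi-square per gene of 1.80 to 3.30 over genes with at least 20 reads. Sequences were read in Python 3.11.15 from the hairpin table of the study, GENCODE and RefSeq. Columns of authors' comparisons were not among the data, and 0 columns of values were left out.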

Additional observations from a re-analysis of the deposited data

How the results depend on the processing

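With a pseudocount of 1, 255 genes were higher and 248 lower at 2-fold with an adjusted p under 0.05 from limma, against 838 and 418, and quantile normalisation gave 477 higher; a pseudocount of 1 shrinks low genes by construction, and the cause of the shift under quantile normalisation was not tested. The other alternatives kept both counts within 1.5 times. Leaving out 1 library at a time gave 792 to 857 higher and 403 to 436 lower genes, and 29 to 32 higher and 24 to 26 lower of the other genes of the pathway. The values of the 9 genes held their direction as described, other than ENTPD1, ENTPD6 and ADK.

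The replicate numbers were not found to pair the libraries: deviations of libraries with the same number correlated at -0.01342, -0.06564 and -0.001103. With the replicate block, 833 genes were higher and 414 lower, and 31 and 25 of the other genes of the pathway; the calls of the 9 genes did not change. Depth limited ENTPD1, ADORA2B and ADA, with 47 to 179 reads per library, and ADORA1, with 1 to 5, more than the rest.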
